A study of Mus musculus with 22 samples.

Results

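The comparison set 3 arrays of K14-DN-Clim transgenic back skin taken at postnatal day 14 (P14) against 5 arrays of the same transgenic line taken at postnatal day 6 (P6). These 8 arrays, chosen by their titles, are part of a series of 22, and the 8 wild-type arrays of the same ages (3 at P14, 5 at P6) served as the normal course. DN-CLIM blocks the CLIM (Ldb) cofactors in a dominant-negative way and was placed under the keratin 14 promoter, which is active in basal keratinocytes of the epidermis and in the outer root sheath of the hair follicle. Dermis, muscle, fat, vessels and blood in the same piece of skin are outside the promoter's usual reach. All groups were mouse back skin on the CB6F1 background, and the wild-type mice were littermates of the transgenic ones. The DN-CLIM P14, DN-CLIM P6, wild-type P14 and wild-type P6 groups carried no other listed allele or agent. The series also holds telogen arrays of both genotypes (P23), which entered the fit to estimate the spread and the mean signal by which probe sets were filtered and chosen for a gene, and are not compared here. No label says which mouse or mice an array came from, so the p-values measure the spread between arrays, part of which may be technical.

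CLIM proteins have no DNA-binding domain. They dimerise and bridge LIM homeodomain and LIM-only proteins into transcription complexes, and the dominant-negative form keeps the part that binds LIM domains while lacking the part that dimerises. Hair follicles of mouse back skin grow together in the first postnatal weeks. Early in that period the follicles lengthen into a thickening dermis and fat layer. Later in it the matrix cells at the base of each follicle feed a growing shaft, built of hair keratins and keratin-associated proteins, which rises inside an inner root sheath. The question of the comparison was whether transgenic skin passes through the same change between these ages as wild-type skin.

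The hair shaft keratins were among the genes that rose between P6 and P14 in DN-CLIM skin, and the 250 bases before the start site of 3 of them are shown because shaft keratin promoters are compact. Of the 10 shaft keratins tested, 6 had an entry in the RefSeq promoter table (build GRCm38.p6). The 3 with the smallest p among those 6 are Krt84 at chr15:101532821-101533070 (minus strand), Krt33b at chr11:100029869-100030118 (minus strand) and Krt32 at chr11:100088270-100088519 (minus strand), each written 5′ to 3′ on the gene's strand and ending at the base before the start site. Capitals mark TATAAA, the TATA box, searched on the gene's strand, and CTTTGAAG, a LEF/TCF motif known from hair keratin promoters, searched on both strands and picked after these sequences were seen.
Krt84: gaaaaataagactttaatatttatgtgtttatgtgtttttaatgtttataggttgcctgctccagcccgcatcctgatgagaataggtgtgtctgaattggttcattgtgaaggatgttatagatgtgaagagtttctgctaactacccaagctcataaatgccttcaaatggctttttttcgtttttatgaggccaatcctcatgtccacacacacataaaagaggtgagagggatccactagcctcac
Krt33b: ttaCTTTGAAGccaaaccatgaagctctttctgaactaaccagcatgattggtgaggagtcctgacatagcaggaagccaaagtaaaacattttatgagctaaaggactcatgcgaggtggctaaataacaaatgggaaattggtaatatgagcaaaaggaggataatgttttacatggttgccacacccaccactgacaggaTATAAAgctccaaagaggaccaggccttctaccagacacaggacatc
Krt32: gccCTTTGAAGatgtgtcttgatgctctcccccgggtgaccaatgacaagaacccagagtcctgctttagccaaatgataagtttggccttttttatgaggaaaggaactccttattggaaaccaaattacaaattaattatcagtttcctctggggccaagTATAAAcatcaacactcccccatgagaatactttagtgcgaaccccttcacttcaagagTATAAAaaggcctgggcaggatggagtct
Krt33b and Krt32 held both motifs in this window and Krt84 held neither in these letters. TATAAA was found in 4 of the 6 shaft keratin promoters, against 7.59% of the 32851 promoters in the table. CTTTGAAG was found in 4 of the 6, against 1.42% of all promoters. The log2 change between P6 and P14 in DN-CLIM skin was 1.59 for Krt84, 0.95 for Krt33b and 0.72 for Krt32, so the promoter with neither motif belonged to the gene with the widest change of the 3. A match in these letters is a description and not evidence of binding.

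Genes of mitosis fell over the same interval, and 3 of their promoters are shown because genes of this phase share short motifs. Of the 33 mitosis genes tested, 25 had an entry. The 3 with the smallest p whose entry begins at the gene's annotated start are Ccnb2 at chr9:70421555-70421804 (minus strand), Cks2 at chr13:51644982-51645231 (plus strand) and Cdc20 at chr4:118437344-118437593 (minus strand). Capitals mark CCAAT, the CCAAT box, and TTTGAA, the cell cycle homology region, both searched on both strands. TTTGAA also lies inside CTTTGAAG.
Ccnb2: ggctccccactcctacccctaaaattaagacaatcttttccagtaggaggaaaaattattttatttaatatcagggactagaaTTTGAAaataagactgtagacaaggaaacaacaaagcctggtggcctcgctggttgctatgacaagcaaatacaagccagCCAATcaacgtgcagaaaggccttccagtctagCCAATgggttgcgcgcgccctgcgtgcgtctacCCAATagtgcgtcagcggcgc
Cks2: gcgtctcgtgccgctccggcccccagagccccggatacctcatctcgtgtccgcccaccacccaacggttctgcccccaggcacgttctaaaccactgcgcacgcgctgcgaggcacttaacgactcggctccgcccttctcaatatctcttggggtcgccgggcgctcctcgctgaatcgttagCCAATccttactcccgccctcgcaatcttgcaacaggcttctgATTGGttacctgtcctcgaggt
Cdc20: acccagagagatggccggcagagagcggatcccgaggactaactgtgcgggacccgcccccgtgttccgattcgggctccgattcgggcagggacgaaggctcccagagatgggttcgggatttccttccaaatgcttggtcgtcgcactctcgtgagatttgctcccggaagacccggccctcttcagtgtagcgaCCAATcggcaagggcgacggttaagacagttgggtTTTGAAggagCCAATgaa
Ccnb2 (cyclin B2) held 3 copies of CCAAT and 1 of TTTGAA, Cks2 held 2 copies of CCAAT and none of TTTGAA, and Cdc20 held 2 copies of CCAAT and 1 of TTTGAA. The CCAAT box was present in 84% of the 25 mitosis promoters and in 33.8% of all 32851. TTTGAA was present in 56% of the 25 and in 16% of all. Both were also found in the shaft keratin promoters: CCAAT was in 4 and TTTGAA in 5 of the 6 shaft keratin promoters, and in 4 of those 6 promoters CTTTGAAG, which holds TTTGAA, was present. Among the 13 called as lower that had an entry, 76.9% held CCAAT and 61.5% held TTTGAA, so the called genes did not stand out from the rest of the list. The log2 change in DN-CLIM skin was -0.54 for Ccnb2, -0.77 for Cks2 and -0.57 for Cdc20.

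Each array gave 1 signal per probe set, scaled by the authors so that the 2% trimmed mean was 500.2 or 500.3 on each of the 22. Signals are given below as log2 values, and a log2 change is P14 minus P6. Precision is limited by how many arrays each group has. The library labelled DN-CLIM P6 replicate 5 stood apart: its mean correlation with the other arrays of its group was 0.923, against 0.954 to 0.959 for the other 4. The SD of the log2 difference between a pair of arrays ran from 0.37 to 0.42 among the DN-CLIM P14 arrays, and from 0.32 to 0.61 among the DN-CLIM P6 arrays. Xist, the transcript of the inactive X, and the Y-linked Eif2s3y were opposite on each of the 6 P14 arrays (1 high, the other low). On DN-CLIM P6 replicates 2 and 5 both were high, at 8.31 and 8.29 for Xist and 7.60 and 6.81 for Eif2s3y, and on wild-type P6 replicates 1 to 4 both were high too. With log2 Xist as a covariate 1663 probe sets were called in DN-CLIM skin, of which 1630 were among the 1664 called without it. Markers of keratinocytes, hair follicle, fibroblasts, muscle and fat were bright, as were Tyrp1 and Dct of pigment cells. The pigment gene Tyr was dimmer (percentile 43.1 of mean signal) and was not tested. Its means were 7.57 at DN-CLIM P14 and 7.55 at DN-CLIM P6. The probe sets for Krt5 and Krt14, which mark the basal layer, were dim (percentiles 23.7 and 19 of mean signal), as were those for the T cell genes Cd3e and Cd3g (28.9 and 15), and none of the 4 was tested.

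DN-CLIM skin changed widely between P6 and P14, and nearly all of the change ran the same way as in wild-type skin. Of the 6211 probe sets tested, 1664 (26.8%) passed an adjusted p of 0.05 in limma, with 749 (12.1%) higher and 915 (14.7%) lower at P14. Among these, 116 rose and 129 fell by at least 2-fold. In wild-type skin 1290 (20.8%) passed, with 586 (9.43%) higher and 704 (11.3%) lower. In total 877 probe sets passed in both genotypes, which is 52.7% of the DN-CLIM calls and 68% of the wild-type calls, and 876 of the 877 moved in the same direction, the exception being Sft2d1. Of the 1664 called in DN-CLIM skin, 55 had a wild-type change of the opposite sign. The 3 P14 arrays did not overlap the 5 P6 arrays for 1609 probe sets (25.9%) in DN-CLIM skin, and 1310 of these were also called. Counted by gene, 27.4% of 4900 were called and 26.6% had groups that did not overlap. The DN-CLIM count fell to 1093 without P14 replicate 2 and to 956 in a fit of the 8 DN-CLIM arrays alone, and centring each array on its median left 1761 calls with a different split, 561 higher and 1200 lower.

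The size of the change was close in both genotypes. The 586 probe sets that rose in wild-type skin had a median log2 change of 0.52 in DN-CLIM skin and 0.60 in wild type, and 97.4% of them were positive in DN-CLIM skin. The 704 that fell in wild type had medians of -0.52 in DN-CLIM and -0.60 in wild type, with 97% negative in DN-CLIM. Turned round, the 749 that rose in DN-CLIM skin had medians of 0.62 in DN-CLIM and 0.45 in wild type, and the 915 that fell had -0.59 in DN-CLIM and -0.44 in wild type. Whichever genotype chose the probe sets showed the larger change, so neither pair of medians ranks the genotypes. Across all 6211 the log2 changes of the 2 genotypes, which share no array, had a Pearson correlation of 0.794 and a Spearman correlation of 0.731, given as a description because probe sets are not independent. The change itself was tested for a difference between genotypes in the same fit. At an adjusted p of 0.05 limma called 1 of 6211 probe sets (0.0161%), which is 1 of 4900 genes (0.0204%). An unadjusted p under 0.05 was reached by 416 probe sets (6.7%), where 311 would be expected with no difference anywhere. The median half-width of the 95% interval of that difference was 0.47 on the log2 scale. That interval is not adjusted for the number of probe sets, and larger differences also missed the adjusted threshold, such as 1.0 for Sardh (adjusted p = 0.507).

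**Figure D1:**
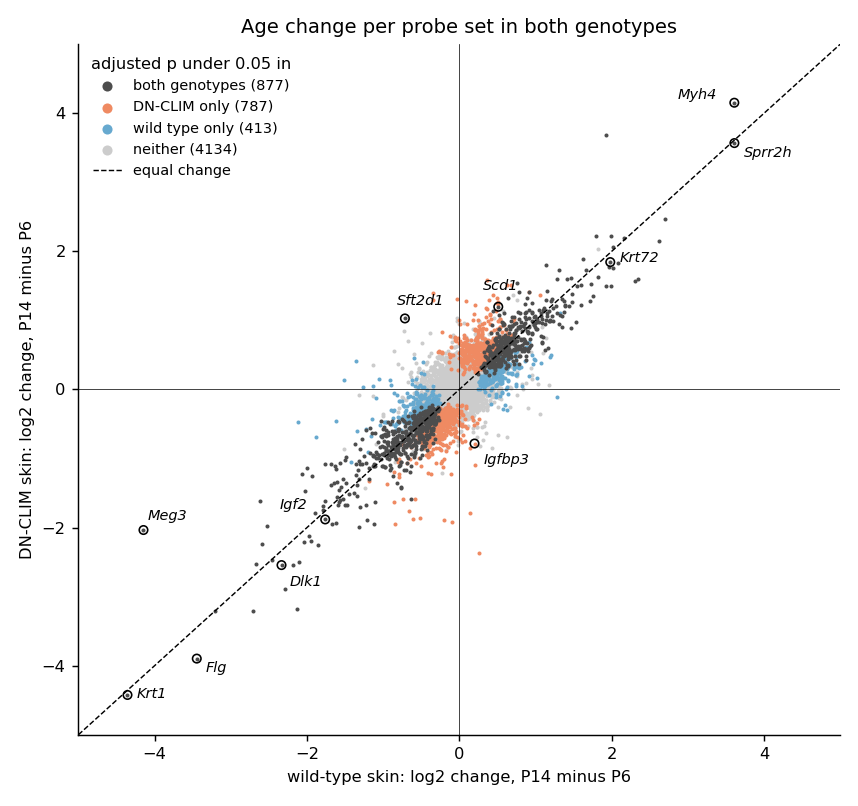
Log2 change between P6 and P14 of each tested probe set in DN-CLIM skin (vertical axis) and in wild-type skin (horizontal axis), coloured by which comparison passed an adjusted p of 0.05 in limma, with named genes circled. The 877 probe sets called in both genotypes lie along the line of equal change, except Sft2d1, and Meg3 lies far from that line on the probe set shown.

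On each array the wild-type programme was visible in the DN-CLIM samples. The mean log2 signal of the 586 wild-type risers was 10.34, 10.37 and 10.34 on the DN-CLIM P14 arrays, against 9.69 to 9.78 on the 5 DN-CLIM P6 arrays. The mean of the 704 wild-type fallers was 9.32, 9.24 and 9.33 at DN-CLIM P14, against 9.90 to 9.96 at DN-CLIM P6. All 3 P14 arrays were apart from all 5 P6 arrays in both measures, including P6 replicate 5. The wild-type arrays chose these probe sets, so their own means (10.47 for risers and 9.16 to 9.20 for fallers at P14) are no measure of a wider change in wild type.

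**Figure D2:**
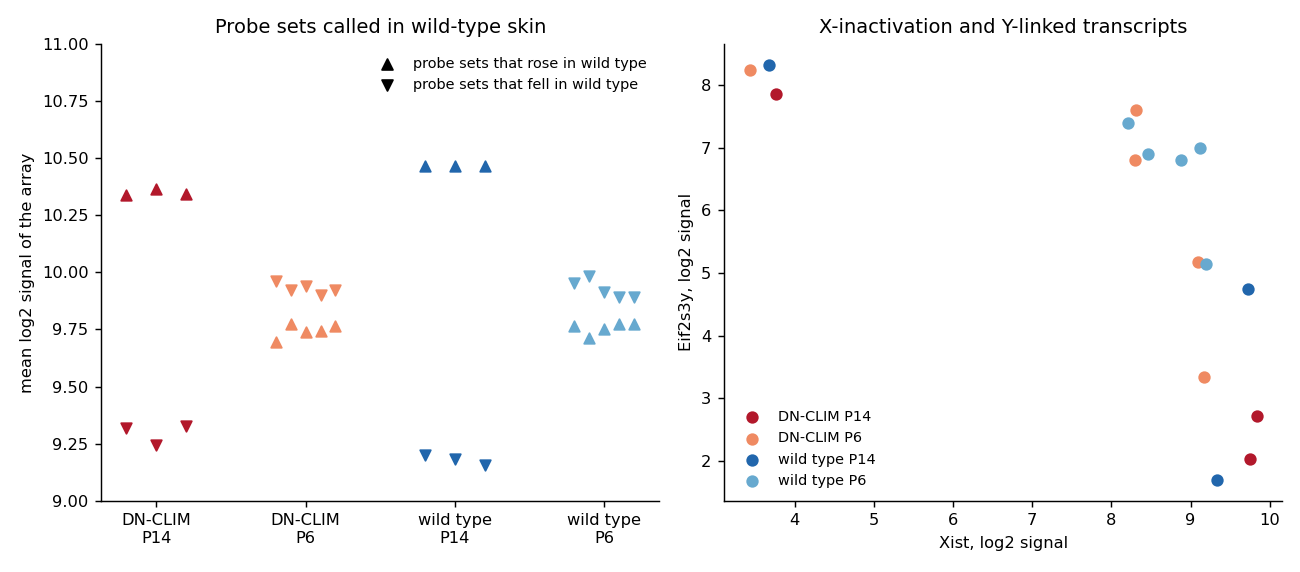
Left, mean log2 signal on each array of the 586 probe sets that rose (upward triangles) and the 704 that fell (downward triangles) in wild-type skin, by group. The DN-CLIM P14 arrays lie at 10.34 to 10.37 for risers and 9.24 to 9.33 for fallers. Right, log2 signals of Xist and Eif2s3y, where some P6 arrays of each genotype are high in both.

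The hair shaft genes rose together in DN-CLIM skin. Of 10 hair shaft keratins, the structural proteins of cortex and cuticle, 8 rose and 0 fell, where 11.7% of the 4900 genes tested rose and 15.7% fell. The DN-CLIM counts of every later list stand beside these same shares. In wild type 9.67% of the 4900 genes rose and 12.1% fell, and the wild-type counts of every list stand beside those. The median log2 change of the shaft keratins was 0.94, against -0.01 over all genes, and 8 also rose in wild type with a median of 0.72. The mean over the list was 13.57 to 13.82 on the P14 arrays, against 12.57 to 13.03 on the P6 arrays. Krt84, a type II member of the hair keratin family known in human from the tongue, had log2 signals of 9.46, 9.64 and 9.66 on the DN-CLIM P14 arrays, against 7.92, 7.95, 7.25, 8.24 and 8.62 on the P6 arrays. Each P14 array was above each P6 array, and the gene was 3.02-fold higher (log2 change 1.59, SE 0.20, adjusted p = 3.63e-06). Krt86, a basic hair keratin, had 15.63, 15.34 and 15.36 at P14, against 13.98, 14.27, 14.15, 14.28 and 14.63 at P6. The groups were again apart, with a log2 change of 1.18 (SE 0.17, adjusted p = 2.73e-05). Krt81 and Krt83 changed by 0.95 and 0.93. Krt36 (0.39) and Krt35 (0.26) did not pass. In whole skin, more cells of a type and more RNA per cell cannot be told apart.

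Keratin-associated proteins, which cross-link the keratin filaments of the shaft, moved with the keratins. Of 11 tested, 8 rose and 1 fell, with a median log2 change of 0.74, against 0.64 in wild type, where 7 rose and 1 fell. Krtap5-4 had 12.38, 12.25 and 12.36 at DN-CLIM P14, against 10.18, 10.47, 10.52, 10.03 and 10.98 at P6. All 3 P14 arrays were higher than all 5 P6 arrays (3.71-fold, log2 change 1.89, adjusted p = 3.13e-08). Krtap9-1 had 15.92, 15.62 and 15.64 at P14, against 14.20, 14.21, 14.12, 14.17 and 14.35 at P6, a log2 change of 1.51 with adjusted p = 1.79e-06. Krtap14 (1.43) and Krtap5-1 (1.11) rose as well. The member that fell was Krtap6-3, a glycine-tyrosine-rich protein, at -1.11 in DN-CLIM and -1.63 in wild type, both past the threshold, and the DN-CLIM call was lost without P14 replicate 2 (adjusted p = 0.0517). Hair keratins, keratin-associated proteins, Sprr2 genes and class I histocompatibility genes each form families of near-identical copies, so a probe set can read transcripts of more than 1 member.

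Of 9 genes of the inner root sheath and companion layer, the sleeve that guides the shaft, 5 rose and 0 fell. Their median log2 change was 0.66 in DN-CLIM, with a range of 0.42 to 0.85 over 21 alternative settings, and 0.69 in wild type. Krt72, an inner root sheath keratin, had 14.03, 13.90 and 13.66 at DN-CLIM P14, against 12.01, 12.19, 12.36, 11.75 and 11.81 at P6. It was 3.59-fold higher (log2 change 1.84, SE 0.12, adjusted p = 2.21e-10), and it changed by 1.98 in wild type. Tgm3, the transglutaminase that hardens the sheath and shaft, rose by a log2 change of 1.30, and Padi3, a peptidylarginine deiminase that acts on trichohyalin, by 0.86 (adjusted p = 0.00462, 0.0933 with P6 replicates 4 and 5 as the only P6 arrays). Krt71, another sheath keratin, had a log2 change of 0.57 that did not pass (adjusted p = 0.0568). Tchh, which encodes trichohyalin, had 0.53 on its brightest probe set, which did not pass, and 1.15 on a second one, which did (adjusted p = 0.0106). Among 8 regulators of the hair matrix, 1 rose and 1 fell, beside 11.7% and 15.7% over all genes. Foxq1, a forkhead factor needed for normal shaft structure, rose by 0.91 and Msx1, a homeobox factor, fell by 0.55 on the log2 scale, with adjusted p = 0.00148 and 0.0101. The Msx1 call was lost (adjusted p = 0.0898) with P6 replicates 4 and 5 alone.

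**Figure D3:**
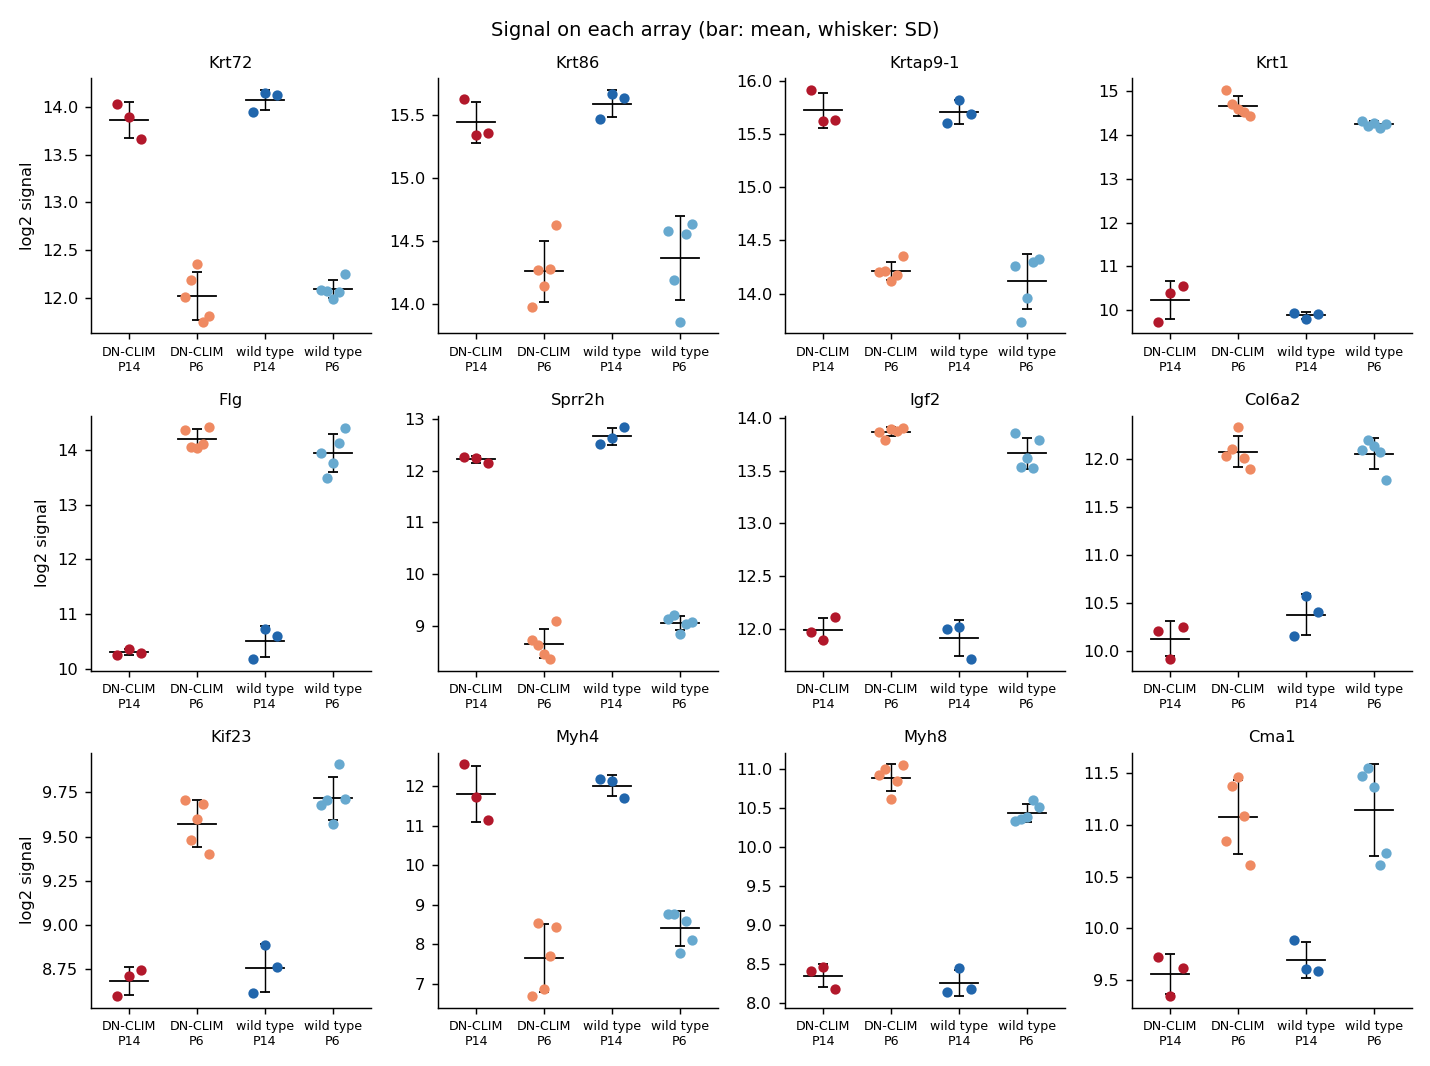
Log2 signal of 12 genes on each array of DN-CLIM P14, DN-CLIM P6, wild-type P14 and wild-type P6 skin, with the mean as a bar and the SD as a whisker. For each of the 12 genes the 3 DN-CLIM P14 arrays do not overlap the 5 DN-CLIM P6 arrays, and the direction is the same in wild type.

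Signalling genes of the follicle went both ways. Of 5 hedgehog pathway genes tested, 1 rose and 3 fell, beside 11.7% and 15.7% over all genes. Ptch1, the hedgehog receptor and itself a target of the pathway, had 8.99, 8.51 and 9.07 at DN-CLIM P14, against 9.67, 9.70, 9.51, 9.85 and 9.94 at P6. Every P14 array was lower (log2 change -0.88, SE 0.12, adjusted p = 2.37e-05), and in wild type the change was -0.42. The difference between the genotypes was -0.46 (95% interval -0.82 to -0.09, unadjusted p = 0.0168, adjusted p = 0.683). A second, dimmer Ptch1 probe set did not pass, with a log2 change of 0.21 in DN-CLIM. Gli1, the transcription factor that the pathway induces, had 8.28, 8.15 and 8.69 at P14, against 9.30, 9.26, 9.24, 9.37 and 8.77 at P6. Its change was -0.81 (adjusted p = 0.00324), and the call was lost with P6 replicates 4 and 5 alone (adjusted p = 0.0744). Smo, the signal transducer that Ptch1 restrains, rose by 0.46 (adjusted p = 0.0109) and lost the call under 3 of 20 alternatives. Shh, the ligand, had a log2 change of -0.58 that did not pass in DN-CLIM and -0.83 that passed in wild type.

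Of 15 Wnt pathway genes, 2 rose and 5 fell in DN-CLIM skin, beside 11.7% and 15.7% over all genes. The list median was -0.16 (range -0.51, with the stricter filter on dim probe sets, to -0.10 over 21 alternatives). Tcf7l2, a nuclear partner of beta-catenin, had 10.36, 10.73 and 10.51 at P14, against 9.81, 9.80, 9.40, 9.64 and 9.92 at P6, a log2 change of 0.82 with adjusted p = 0.000195. Ccnd1, cyclin D1, changed by -0.99, and a second probe set changed by -0.93. Sfrp2, a secreted Wnt inhibitor of the dermis, changed by -1.07 in DN-CLIM and -1.76 in wild type, and Fzd2, a Wnt receptor, by -0.75 in DN-CLIM and -0.46 in wild type. Sfrp1, another secreted inhibitor, was at 0.54 in DN-CLIM, a call lost under 12 of 20 alternatives (adjusted p = 0.0365, up to 0.201), and its -0.22 in wild type did not pass. The difference for Sfrp1, 0.76, had an unadjusted p of 0.00886 and did not pass after adjustment. Of 14 growth and regression signals, 3 rose and 5 fell in DN-CLIM, and 3 rose and 4 fell in wild type. Bmp2, a bone morphogenetic protein of the shaft lineage, rose by 0.83 (adjusted p = 0.00536, and 0.0536 with P6 replicates 4 and 5 alone). Igfbp2, which binds insulin-like growth factors, had 9.73, 9.70 and 9.94 at P14, against 11.04, 10.81, 11.15, 10.83 and 11.58 at P6, a log2 change of -1.29 with adjusted p = 7.15e-06. Fst, the activin antagonist follistatin, changed by -0.82.

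Genes that later mark the bulge, the stem cell niche of the resting follicle, fell more often than they rose. Of 18 tested, 3 rose and 7 fell in DN-CLIM, and 3 rose and 3 fell in wild type. Over all genes 11.7% rose and 15.7% fell in DN-CLIM, and 9.67% rose and 12.1% fell in wild type. The list median was -0.30 in DN-CLIM (range -0.44 to -0.19 over 21 alternatives) and -0.25 in wild type. Npnt, nephronectin of the basement membrane, had 7.47, 7.02 and 7.15 at DN-CLIM P14, against 8.17, 8.06, 8.24, 8.33 and 8.0 at P6. All P14 arrays were lower, by a log2 change of -0.95 (adjusted p = 6.5e-05), against -0.50 in wild type. Nfatc1, a transcription factor of quiescent bulge cells, changed by -0.96 (adjusted p = 0.000127), against -0.39 in wild type, which did not pass. For 7 of the 18 the difference between genotypes had an unadjusted p under 0.05, where 6.7% of all probe sets did, and 0 passed after adjustment. The DN-CLIM groups did not overlap for 8 of the 18 downward and 0 upward, beside 26.6% of all genes in either direction. The list mean was 9.10 to 9.19 at DN-CLIM P14 and 9.37 to 9.44 at DN-CLIM P6, against 9.26 to 9.32 at wild-type P14 and 9.36 to 9.43 at wild-type P6. The median difference between genotypes was -0.22, with single genes both ways, among them -0.45 for Npnt and -0.57 for Nfatc1 against 0.76 for Sfrp1, which is on this list too.

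Transcripts for some members of the cofactor complex that the transgene interferes with also changed with age. Of 7 tested CLIM and partner genes, 4 fell and 0 rose in DN-CLIM skin, and the same counts held in wild type. Ldb1, which encodes the CLIM2 cofactor, had 9.82, 9.15 and 9.18 at DN-CLIM P14, against 10.42, 10.39, 10.22, 10.21 and 10.44 at P6. The groups did not overlap and the log2 change was -0.95 (SE 0.13, adjusted p = 1.39e-05), against -0.59 in wild type. The difference of -0.36 had a 95% interval of -0.74 to 0.02 and did not pass. The sources used here do not say whether the transgene's transcript is read by this probe set, so its level does not check the labels. Ldb2, the other CLIM gene, had 9.75, 9.93 and 9.91 at P14, against 9.71, 9.64, 9.60, 9.81 and 9.82 at P6, groups that overlap (log2 change 0.14, adjusted p = 0.38). The LIM-only partners Lmo1 (-1.0) and Lmo4 (-0.77) fell. Lmo4 on P6 replicate 5 was 11.23, above the 10.26 to 10.40 of the other P6 arrays. Ssbp2, a stabiliser of the complex, changed by -0.31 (adjusted p = 0.0299) and lost the call under 6 of 21 alternatives. Lhx2, a LIM homeobox gene of the follicle, had no probe set assigned to it alone.

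The epidermis outside the hair showed the largest falls. Of 21 differentiation genes, 11 fell and 5 rose, with a median of -0.78 in DN-CLIM and -0.38 in wild type, and wild type had the same counts. Krt1, the main type II keratin of suprabasal cells, had 9.73, 10.40 and 10.55 at DN-CLIM P14, against 15.02, 14.71, 14.59, 14.51 and 14.43 at P6. It was 21.5-fold lower (log2 change -4.42, SE 0.16, adjusted p = 1.25e-14), and the wild-type change was -4.36. Flg, which encodes the granular layer protein filaggrin, had 10.25, 10.35 and 10.29 at P14, against 14.36, 14.06, 14.04, 14.10 and 14.42 at P6, a 14.9-fold fall (adjusted p = 1.78e-13). The difference between genotypes was -0.07 for Krt1 (95% interval -0.54 to 0.40) and -0.45 for Flg (-0.94 to 0.04).

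Other products of the upper epidermis fell by smaller amounts. Calm4, a calmodulin-like protein of keratinocytes, had 12.77, 13.02 and 12.89 at DN-CLIM P14, against 15.36, 14.97, 15.01, 15.29 and 15.07 at P6, with a log2 change of -2.25 in DN-CLIM and -1.85 in wild type. Casp14, the caspase of cornification, changed by -2.52, and its P6 replicate 5 (9.11) lay below the other 4 (10.90 to 11.47). Krt10, the partner of Krt1, changed by -1.94 and Krtdap, a secreted protein of differentiating keratinocytes, by -1.70. Hal, the histidase of the stratum corneum, fell by 2.21 on the log2 scale, and Serpina12, a serpin made in skin and fat, by 2.47. The genes that rose were Krt77, Ivl (involucrin), Krt2, Cdsn (corneodesmosin) and Ppl (periplakin), of which Krt2 and Cdsn lost the call under 2 alternatives each (adjusted p up to 0.139 and 0.0873). Krt77, the keratin of sweat duct and eccrine lineage in human skin, had 12.12, 11.81 and 11.99 at P14, against 10.13, 9.83, 9.79, 10.30 and 10.67 at P6, a log2 change of 1.83 (adjusted p = 7.19e-09). For Calm4 and Krtdap the fall was wider in DN-CLIM by 0.40 each (unadjusted p = 0.00777 and 0.00866, adjusted p = 0.683 for both).

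Genes of activated and stressed keratinocytes went up. Of 17 tested, 10 rose and 1 fell, with a median of 0.62 in DN-CLIM and 0.68 in wild type, where 13 rose and 1 fell. Sprr2h, a small proline-rich envelope protein, had 12.26, 12.25 and 12.14 at DN-CLIM P14, against 8.73, 8.63, 8.46, 8.35 and 9.10 at P6. It was 11.8-fold higher (log2 change 3.57, SE 0.37, adjusted p = 3.24e-07). Its relative Sprr2g went the other way, with 7.44, 7.88 and 8.52 at P14, against 9.97, 10.37, 10.26, 10.27 and 10.09 at P6 (log2 change -2.25, adjusted p = 1.92e-09), and the 2 moved apart in wild type too (3.61 and -2.59). Krt6a, a keratin of the companion layer and of wounds, had 13.73, 14.33 and 14.03 at P14, against 13.26, 12.78, 12.83, 12.70 and 12.69 at P6, a log2 change of 1.18 with 1.22 on a second probe set. Krt16 (1.63), S100a8, a subunit of calprotectin (1.75), and Defb1, a beta-defensin (1.61), rose likewise. Dsc2, a desmosomal cadherin, rose by 2.19 and Car6, a secreted carbonic anhydrase, by 2.47. The Car6 signals were 11.18, 11.02 and 10.91 at P14, against 8.51, 8.62, 8.63, 8.19 and 8.90 at P6.

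Genes of the basal layer, where the transgene is driven, went both ways. Of 13 genes of the basal layer and the hemidesmosome, the junction that fixes it to the dermis, 3 rose and 3 fell. Over all genes 11.7% rose and 15.7% fell. The median of 0.07 was negative under 8 of 21 alternatives. Bnc1, a zinc finger factor known as basonuclin 1, had 9.20, 9.19 and 9.24 at DN-CLIM P14, against 8.63, 8.83, 8.49, 8.56 and 8.55 at P6. It rose 1.51-fold (log2 change 0.59, adjusted p = 0.000554), and in wild type by 0.37, with a difference of 0.22 (95% interval -0.11 to 0.55). Trp63, the transcription factor p63, changed by 0.25 (adjusted p = 0.0378), a call lost under 8 of 21 alternatives. Col7a1, the anchoring fibril collagen, had 9.59, 9.61 and 9.41 at P14, against 10.75, 10.41, 10.53, 10.42 and 10.80 at P6, a log2 change of -1.04. Plec, which encodes plectin, had 9.22, 9.39 and 9.28 at P14, against 10.42, 9.81, 9.96, 10.10 and 11.80 at P6. The last of these, replicate 5, was far above the rest, and the change of -1.12 (adjusted p = 0.00795) did not pass in a fit of the 8 DN-CLIM arrays alone (adjusted p = 0.0651).

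**Figure D4:**
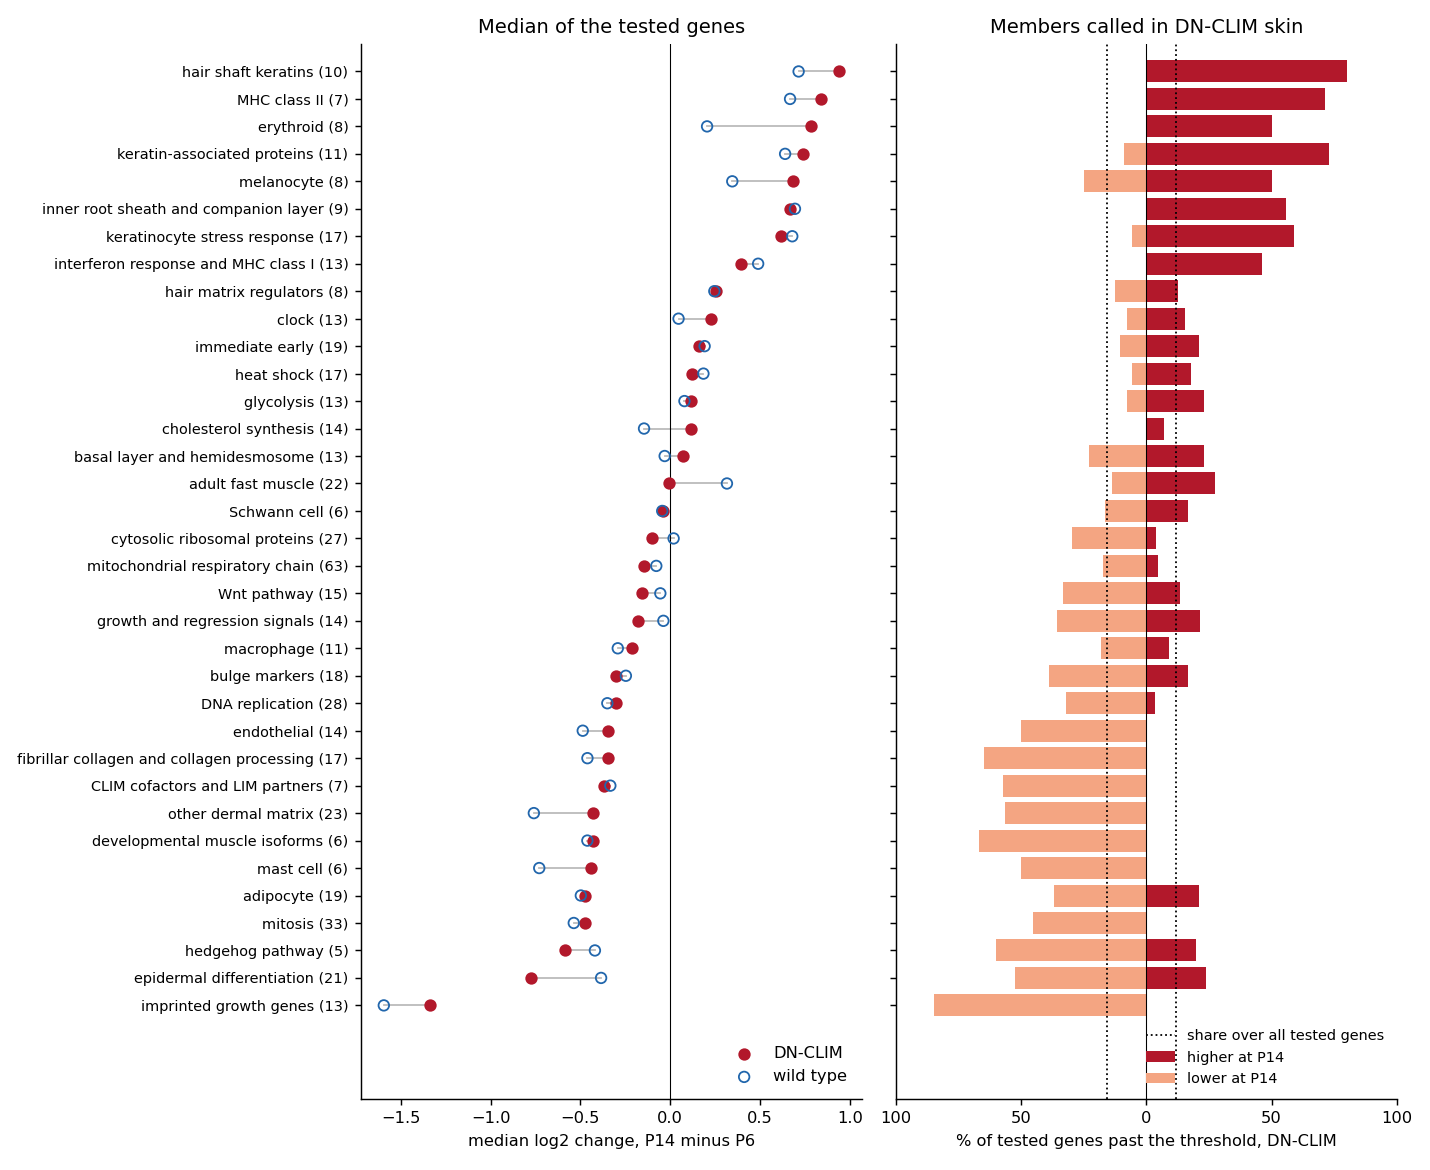
Left, median log2 change between P6 and P14 over the tested genes of each list in DN-CLIM skin (filled) and wild-type skin (open), with the number tested in brackets. Right, the percentage of each list's tested genes called higher (to the right) or lower (to the left) at P14 in DN-CLIM skin, with dotted lines at the 11.7% and 15.7% of all 4900 genes. Hair keratins lie at the top with a median of 0.94, and imprinted growth genes at the bottom with -1.34.

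Proliferation genes that passed nearly all fell. Of 33 mitosis genes 15 fell and 0 rose, with a median of -0.48 in DN-CLIM and -0.54 in wild type, where 19 fell. Kif23, a kinesin of cytokinesis, had 8.60, 8.71 and 8.75 at DN-CLIM P14, against 9.71, 9.48, 9.60, 9.69 and 9.40 at P6. The groups were apart (log2 change -0.89, SE 0.12, adjusted p = 1.22e-05). Smc4, a condensin subunit, had 9.77, 9.68 and 9.89 at P14, against 10.59, 10.48, 10.39, 10.50 and 10.94 at P6, a log2 change of -0.80. Top2a, a topoisomerase, was at -0.24 and did not pass. Of 28 DNA replication genes 9 fell and 1 rose, with a median of -0.30. Pcna, the sliding clamp, changed by -0.92, and Pold2, a subunit of DNA polymerase delta, by -2.13 in DN-CLIM and -1.98 in wild type. The gene that rose was Ung, a uracil glycosylase (0.69), whose second probe set was at -0.12 and did not pass.

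Signals of dermal matrix genes fell in whole skin over the same interval. They are relative to each array's own brightness. Of 17 genes of collagens and their processing, 11 fell and 0 rose, with a median of -0.35. The 3 chains of collagen VI, a microfibrillar collagen, all fell. Col6a2 had 10.21, 9.92 and 10.25 at DN-CLIM P14, against 12.03, 12.10, 12.34, 12.01 and 11.90 at P6, a 3.87-fold fall (log2 change -1.95, SE 0.12, adjusted p = 6.33e-11). Col6a3 changed by -1.38 and Col6a1 by -0.82. Col5a2, a regulator of fibril diameter, changed by -1.11. Col1a1, the most abundant of them in skin, was at -0.23 and did not pass. Of 23 other matrix genes 13 fell and 0 rose, and the median was -0.43 in DN-CLIM and -0.76 in wild type. Lum (lumican) changed by -1.03 in DN-CLIM and -1.51 in wild type, and Vcan (versican) by -1.15 in DN-CLIM and -1.61 in wild type. Their differences, 0.48 and 0.46, had unadjusted p = 0.0221 and 0.0481 and did not pass after adjustment. Mfap2, a microfibril protein, changed by -1.12, Lgals1, galectin 1, by -0.92, and Twist2, a transcription factor of dermal progenitors, by -2.89 (adjusted p = 1.05e-08).

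Imprinted genes of growth control formed the list with the lowest median. Of 13 tested, 11 fell and 0 rose in both genotypes, with a median of -1.34 in DN-CLIM and -1.59 in wild type. These genes act in fetal growth. Igf2, insulin-like growth factor 2, had 11.97, 11.89 and 12.11 at DN-CLIM P14, against 13.87, 13.80, 13.90, 13.88 and 13.91 at P6. It was 3.69-fold lower (log2 change -1.88, SE 0.11, adjusted p = 6.33e-11). Dlk1, an inhibitor of adipocyte maturation, had 9.16, 9.53 and 8.84 at P14, against 11.80, 11.92, 11.92, 11.54 and 11.42 at P6, a log2 change of -2.54. Peg3 changed by -1.67 on its brightest probe set, by -1.26 on a second and by -0.36, which did not pass, on the third. Ndn (necdin) changed by -1.55.

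Back skin includes a sheet of striated muscle, and its myosins were exchanged. Myh4, the fast IIb myosin, had 12.56, 11.72 and 11.14 at DN-CLIM P14, against 6.69, 8.54, 6.87, 7.72 and 8.45 at P6. It was the gene with the largest rise among those named (17.7-fold, log2 change 4.15, SE 0.36, adjusted p = 1.95e-08). Myh1, the fast IIx myosin, had 11.37, 11.11 and 11.41 at P14, against 9.70, 9.94, 9.70, 9.89 and 9.77 at P6, a log2 change of 1.5. Myh8, the perinatal myosin, had 8.42, 8.46 and 8.18 at P14, against 10.93, 11.01, 10.62, 10.84 and 11.06 at P6, a log2 change of -2.54. The wild-type changes were 3.61 for Myh4, 1.92 for Myh1 and -2.19 for Myh8. Of 6 developmental muscle genes 4 fell and 0 rose. Of 22 adult fast muscle genes 6 rose and 3 fell, beside 11.7% and 15.7% over all genes. Their median was -0.01 in DN-CLIM, positive under 8 of 21 alternatives, and 0.32 in wild type. Tpm1, a tropomyosin, rose by 0.91 in each genotype, while Tnnc2, the fast troponin C, changed by -0.91 in DN-CLIM with overlapping groups. For 6 of the 22, Myh1 (-0.42) and the actin Acta1 (-0.56) among them, the difference between genotypes was negative with an unadjusted p under 0.05, and 0 passed after adjustment. Over all probe sets 6.7% had such a p, in either direction. The mean over the list was 10.07 to 10.46 at DN-CLIM P14 and 9.71 to 10.10 at DN-CLIM P6. The part of the amount of muscle in each piece of skin was not tested.

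Fat genes were divided. Of 19 adipocyte genes 4 rose and 7 fell, beside 11.7% and 15.7% over all genes, with a median of -0.47. Adipoq, which encodes adiponectin, had 10.65, 10.56 and 10.68 at DN-CLIM P14, against 11.83, 11.997, 11.92, 11.98 and 12.17 at P6, a log2 change of -1.35 (adjusted p = 3.04e-08). Car3, an abundant carbonic anhydrase of fat and muscle, changed by -1.08. Scd1, a fatty acid desaturase of fat and sebaceous gland, went the other way, with 13.15, 14.03 and 13.80 at P14, against 12.52, 12.38, 12.53, 12.46 and 12.42 at P6. It rose 2.29-fold in DN-CLIM (log2 change 1.20, adjusted p = 2.3e-06), against 0.51 in wild type. The difference of 0.69 had a 95% interval of 0.27 to 1.10 and an unadjusted p of 0.00264, and did not pass after adjustment (0.583). A second Scd1 probe set gave 1.41 in DN-CLIM and 0.91 in wild type.

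Genes of antigen presentation rose more often than they fell, and mast cell genes fell more often than they rose. Of 7 class II antigen presentation genes 5 rose and 0 fell, with a median of 0.84 in DN-CLIM. Cd74, the invariant chain, had 10.91, 11.48 and 11.14 at DN-CLIM P14, against 10.44, 10.25, 10.70, 10.03 and 9.34 at P6, a log2 change of 1.03 (adjusted p = 0.00157), and H2-Aa changed by 0.94. Of 13 genes of the interferon response and class I presentation 6 rose and 0 fell. H2-D1, a class I heavy chain, had 13.02, 12.35 and 12.98 at P14, against 10.51, 11.20, 10.96, 11.16 and 11.45 at P6, a log2 change of 1.73. The other H2-D1 probe sets gave 0.51 and 2.22. H2-K1 changed by 1.24, and the third probe set for it, which is dim, did not pass. B2m, the class I light chain, changed by 0.58 (adjusted p = 0.0142), a call lost without P14 replicate 1 or 3. Ccl8, a chemokine of skin macrophages, had 8.67, 8.63 and 9.57 at P14, against 5.44, 7.27, 6.84, 7.54 and 6.59 at P6, a log2 change of 2.22. Mast cell genes fell in 3 of 6 cases and rose in 0, beside 15.7% and 11.7% over all genes. Cma1, mast cell chymase, had 9.72, 9.34 and 9.61 at P14, against 10.84, 11.37, 11.46, 11.09 and 10.61 at P6, a log2 change of -1.52, and Cpa3, a mast cell carboxypeptidase, changed by -1.17. Kit, the stem cell factor receptor of mast cells and melanocytes, changed by -0.46 (adjusted p = 0.0232) and lost the call under 5 of 20 alternatives.

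Vessel genes fell in 7 cases and blood genes rose in 4. Of 14 endothelial genes 7 fell and 0 rose, beside 15.7% and 11.7% over all genes. In sign 12 were negative and 2 positive. The endothelial marker Pecam1 went up without passing, with a mean of 8.94 at DN-CLIM P14 and 8.36 at P6. Sox18, a transcription factor of vessels and of the dermal papilla, had 7.83, 7.84 and 7.73 at DN-CLIM P14, against 9.95, 9.57, 9.46, 9.98 and 10.02 at P6, a 3.99-fold fall (adjusted p = 3.53e-10), against -1.32 on the log2 scale in wild type. Cdh5, the cadherin of endothelial junctions, changed by -0.94 and Cd93, an endothelial receptor, by -0.85. Of 8 erythroid genes 4 rose and 0 fell, beside 11.7% and 15.7% over all genes. Their median was 0.78 in DN-CLIM (0.22 to 0.86 over 21 alternatives) and 0.21 in wild type. The bright red cell marker Hba-a1 was level, with a mean of 12.96 at DN-CLIM P14 and 12.97 at P6. Alas2, which starts heme synthesis in the erythroid lineage, had 9.02, 8.82 and 8.74 at P14, against 7.45, 8.03, 8.04, 8.40 and 7.99 at P6 (log2 change 0.88, adjusted p = 0.00104). Slc4a1, the anion exchanger band 3, changed by 0.87 and Car2, a carbonic anhydrase of red cells and other cells, by 1.41. Blood left in the skin was not measured apart from the tissue, and its part in these values was not tested. Of 8 pigment cell genes 4 rose and 2 fell in DN-CLIM, and 2 rose and 3 fell in wild type. The DN-CLIM groups did not overlap for 1 of the 8 upward and 2 downward, beside 26.6% of all genes in either direction. Changes in the list ran from -0.50 to 1.79, and the genes named next are all among the risers. Tyrp1, an enzyme of melanin synthesis, had 10.84, 10.51 and 11.12 at P14, against 9.06, 10.37, 8.90, 8.29 and 8.52 at P6, a log2 change of 1.79 (adjusted p = 0.00103). P6 replicate 2 was the highest P6 array for Tyrp1, Pmel and Dct, and the P14 and P6 groups overlapped for Pmel (0.73) and Dct (0.74).

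The single probe set whose age change differed between genotypes after adjustment was Sft2d1, a membrane protein of vesicle transport. Sft2d1 had 11.85, 12.001 and 11.99 at DN-CLIM P14, against 10.85, 11.63, 10.15, 10.85 and 11.12 at DN-CLIM P6. In wild type the means were 10.60 ± 0.09 at P14 and 11.32 ± 0.25 at P6 (SD, n = 3 and 5). The gene rose by 1.03 in DN-CLIM (adjusted p = 0.000706) and fell by 0.72 in wild type (adjusted p = 0.0139). The difference was 1.74 (SE 0.28, 95% interval 1.15 to 2.33, adjusted p = 0.023). It kept its sign under all 29 alternatives and lost the call under 13 of them, with adjusted p up to 0.17 when the P23 arrays were left out of the fit. A further 4 genes had the smallest p among upward differences, and none passed. Sardh, a mitochondrial sarcosine dehydrogenase, had 8.45, 8.69 and 8.38 at DN-CLIM P14, against 7.39, 7.41, 7.77, 7.56 and 7.41 at P6, and a wild-type log2 change of 0.00, so the difference was 1.0 (95% interval 0.51 to 1.5, adjusted p = 0.507). Gstm3, a glutathione transferase, differed by 0.87 and Mgll, monoacylglycerol lipase, by 0.75, and the second Gstm3 probe set showed a difference of 0.00.

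Meg3, an imprinted long noncoding RNA, gave 2 answers. On its brighter probe set it changed by -2.04 in DN-CLIM and -4.15 in wild type, a difference of 2.11 (95% interval 1.19 to 3.03, adjusted p = 0.225). On its other probe set it changed by -1.74 in DN-CLIM and -1.79 in wild type, a difference of 0.05 (-0.39 to 0.48). The brighter probe set had 10.51, 9.65 and 10.32 at DN-CLIM P14, against 12.42, 12.34, 12.33, 12.03 and 11.86 at DN-CLIM P6. The other had 9.88, 9.14 and 9.51 at DN-CLIM P14, against 11.44, 11.22, 11.04, 11.25 and 11.30 at DN-CLIM P6. Without wild-type P14 replicate 2 the first difference passed (2.75, adjusted p = 6.78e-05).

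Igfbp3, the main carrier of insulin-like growth factors in blood, was among the 5 downward differences of smallest p. It had 8.23, 7.44 and 7.99 at DN-CLIM P14, against 8.83, 8.53, 8.66, 8.78 and 8.56 at DN-CLIM P6, a log2 change of -0.78 (adjusted p = 0.0038, and 0.0505 without P14 replicate 2). In wild type it was at 0.20, and the difference was -0.98 (95% interval -1.53 to -0.43, unadjusted p = 0.00124, adjusted p = 0.583). The second Igfbp3 probe set gave -1.89 in DN-CLIM and -0.20 in wild type, a difference of -1.69 with unadjusted p = 0.00341, so both went the same way. Chchd10, a mitochondrial protein, had 10.26, 10.22 and 10.26 at DN-CLIM P14, against 10.97, 10.80, 10.95, 10.81 and 11.15 at P6, and a difference of -0.65. The others were Sox18 (-0.67), Lrch4 (-0.73) and Ak1, adenylate kinase 1 (-0.82), each with adjusted p = 0.583.

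**Figure D5:**
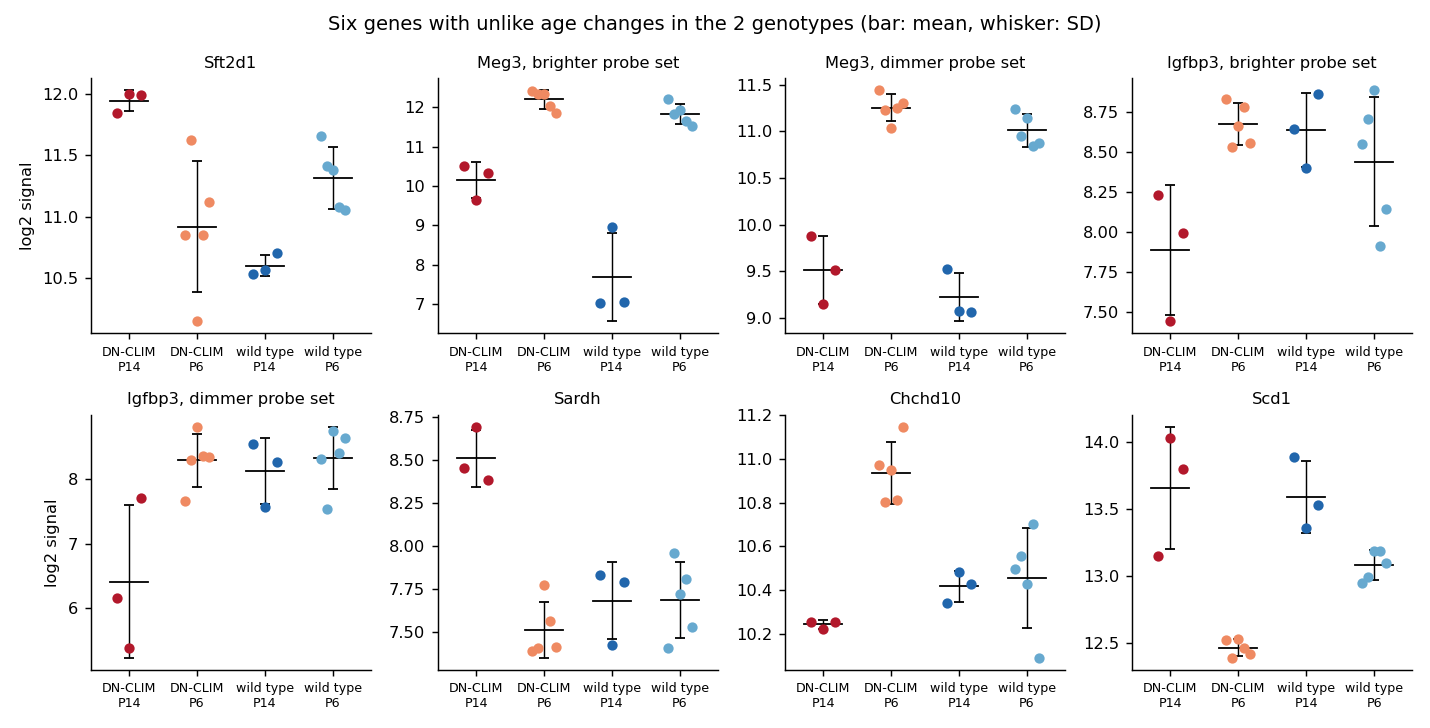
Log2 signal on each array of 6 genes with unlike age changes in the 2 genotypes, with 2 probe sets shown for Meg3 and Igfbp3; the bar is the mean and the whisker the SD. Sft2d1 was higher at P14 in DN-CLIM skin and lower at P14 in wild type, and the Meg3 probe sets differ in how far wild-type P14 lies below DN-CLIM P14.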

How the data were processed

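Whole mouse back skin was hybridised to 1-colour oligonucleotide arrays, 1 signal per probe set and array. The deposited signal intensities were made by the authors with MAS5, whose version the labels do not state, per the submitters' processing notes; they are linear and scaled to a common trimmed mean, as the values show. Such scaling makes signals relative to the array's own brightness. Log2 of the deposited signal was taken here, with nothing else applied. Of 12488 probe sets, 66 controls were left out. The remaining 12422 were cut to the 6211 whose mean log2 signal was at or above the median (7.67, a signal of 203.2), since dim signals are noisy.

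Each comparison was a contrast in 1 limma 3.58.1 fit (R 4.3.3) of all 22 arrays with 6 group means and a variance trend on mean signal. P-values were adjusted by Benjamini-Hochberg over all 6211 probe sets, with a threshold of 0.05, and every adjusted p in the text comes from this limma fit or a named alternative to it. The fit was tested on simulated data. A probe set was named through the platform annotation only where it listed 1 gene (10855 probe sets, against 396 with several and 1237 with none), and none of the 10839 symbols looked up in the RefSeq gene table changed. A gene is represented by its brightest tested probe set (4900 genes).

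The age groups, gene lists and alternatives were chosen with earlier results of these data known. The text names a selection of these: the 15 largest rises and 15 largest falls whose arrays do not overlap, up to 4 members per list by p, the 5 differences of smallest p in each direction, and Ldb1, Ldb2, Lmo4 and Lhx2. Other list members and second probe sets were chosen after their values were seen. Groups come from the array titles, and no 2 arrays were identical. Array numbers do not pair the samples: the deviations of DN-CLIM P14 and P6 arrays of the same number correlated at -0.009, 0.022 and 0.026. Those of DN-CLIM and wild-type P6 arrays of the same number were at 0.13, -0.005, 0.002, 0.185 and 0.086. Some P6 arrays of unlike number went as far: DN-CLIM replicate 4 was at 0.202 with wild-type replicate 5 and -0.268 with replicate 2. P6 deviations also differed between arrays 1 to 3 and arrays 4 and 5. DN-CLIM arrays 1 to 3 were at -0.157 to -0.073 with wild-type arrays 4 and 5, and at -0.005 to 0.189 with wild-type arrays 1 to 3. DN-CLIM arrays 4 and 5 were at 0.051 to 0.202 with wild-type arrays 4 and 5, and at -0.268 to 0.048 with wild-type arrays 1 to 3. P6 arrays 1 to 3 and 4 to 5 were treated as a possible batch, though no label names a batch, and the cause of this split was not tested. All P14 arrays are numbered 1 to 3. With that batch term 1817 probe sets were called in DN-CLIM and 1474 in wild type. The scale, the constant added, the dim filter, the arrays in the fit, array weights, the variance trend, a block or batch by array number, and each array left out were varied. Precision is limited by the number of arrays. RefSeq promoters are on GRCm38.p6, and their coordinates were not joined to the probe sets.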

Additional observations from a re-analysis of the deposited data

Results flagged for a closer look

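In the groups of 5 arrays, 13 of 252 sets of values had 1 array apart from the other 4 by Dixon's criterion, where chance alone gives about 1 in 20. Of these, 8 were in DN-CLIM P6, 5 of them on replicate 5, and 5 were in wild-type P6.

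DN-CLIM P6 replicate 5 was low for 4 epidermal, growth or signalling genes and high for 1 cofactor gene. Casp14, the caspase of cornification, was at 9.11 on that array, against 10.90 to 11.47 on the other 4. Serpina12, a serpin, was at 9.19, against 10.29 to 10.47. Gli1, the hedgehog effector, was at 8.77, against 9.24 to 9.37, and the imprinted gene Peg3 at 11.33, against 11.92 to 12.12. Lmo4, the LIM-only protein, was at 11.23, above the 10.26 to 10.40 of the others. The low values of Casp14, Serpina12, Gli1 and Peg3 lie on the side of the P14 arrays, so they narrow the measured fall, and the high value of Lmo4 widens it.

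On the other DN-CLIM P6 arrays, Krt6a was at 13.26 on replicate 1, against 12.69 to 12.83 elsewhere, Pmel at 11.35 on replicate 2, against 10.71 to 10.88, and Krtap5-1 at 13.76 on replicate 3, against 13.52 to 13.59. On wild-type P6 replicate 2, Tcf7l2 was at 9.84 (others 10.08 to 10.17) and Npnt at 8.02 (others 8.45 to 8.59), while Pcna was at 11.5 (others 11.02 to 11.09) and Sfrp1 at 8.59 (others 8.36 to 8.41). On wild-type P6 replicate 3, Krtap5-4 was at 10.46 (others 10.97 to 11.12).

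The age change of Sft2d1 differed between the genotypes by 1.74 on the log2 scale, tested as an interaction in limma (adjusted p = 0.023).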

How the results depend on the processing

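The DN-CLIM comparison gave 1664 calls, and 966 with a filter at the 75th percentile of mean signal, which leaves 3106 probe sets to test, and 956 from its 8 arrays alone. Leaving out 1 array at a time gave 1093 (without DN-CLIM P14 replicate 2) to 1800 (without DN-CLIM P6 replicate 5). Wild type gave 1290 calls, 830 with the stricter filter and 798 with P6 arrays 4 and 5 alone, and 861 to 1237 with 1 array left out. The difference between genotypes gave 1 call, 0 without the P23 arrays, without the variance trend or with P6 arrays 1 to 3 alone, 4 with P6 arrays 4 and 5 alone, and 0 to 2 with 1 array left out. Apart from the filter and the smaller fits, the cause of these changes was not tested. With the array number as a replicate block the calls were 1817 in DN-CLIM, 1487 in wild type and 1 for the difference, and the numbers do not pair the samples. Centring each array on its median moved the median of all tested probe sets to -0.09 in DN-CLIM and -0.11 in the difference, and the share of DN-CLIM calls that were higher to 31.9%, against 45%. Under quantile normalization, an added constant, no filter, array weights, no trend, either set of P6 arrays and a batch term the DN-CLIM count stayed within 1396 to 1871, as it did (1663) with log2 Xist as a covariate, chosen after seeing the data. For the named genes, 2798 values under an alternative kept direction and side of the threshold, 67 lost the call, 20 gained it and 0 changed sign. List medians moved by more than the spread of the P6 arrays in 98 cases and by less in 658.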

Other observations

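Genes of basic metabolism and of the ribosome were counted in DN-CLIM skin between P6 and P14. Of 63 genes of the mitochondrial respiratory chain 3 rose and 11 fell, with a median log2 change of -0.15, beside 11.7% and 15.7% over all genes. Ndufa7, a subunit of complex I, had 11.35, 12.10 and 12.04 at P14, against 12.76, 12.72, 12.81, 12.34 and 12.53 at P6. The groups did not overlap (log2 change -0.80, adjusted p = 0.00244), and the call was lost with P6 replicates 4 and 5 alone (adjusted p = 0.0615). Of 27 cytosolic ribosomal proteins 1 rose and 8 fell in DN-CLIM (median -0.10), and 3 rose and 2 fell in wild type. Their mean was 12.54 to 12.59 on the DN-CLIM P14 arrays, against 12.64 to 12.79 on the DN-CLIM P6 arrays, so the groups did not overlap. For 6 of the 27 the difference between genotypes had an unadjusted p under 0.05, where 6.7% of all probe sets did, and 0 passed after adjustment in limma. Of 13 glycolysis genes 3 rose and 1 fell, with a median of 0.12.

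Of 13 clock genes 2 rose and 1 fell, with a median of 0.23 in DN-CLIM, which was -0.24 with the stricter filter on dim probe sets, and 0.05 in wild type. Per1, a core repressor of the circadian clock, had 8.72, 8.56 and 8.89 at DN-CLIM P14, against 7.37, 7.49, 7.95, 7.54 and 7.18 at P6. The groups were apart, with a log2 change of 1.21 (adjusted p = 0.000342 in limma), and the hour at which skin was taken is not in the labels used here. Of 19 immediate early genes 4 rose and 2 fell (median 0.16), and of 17 heat shock genes 3 rose and 1 fell (median 0.12, -0.05 to 0.17 over 21 alternatives). Of 11 macrophage genes 1 rose and 2 fell (median -0.21), of 6 Schwann cell genes 1 rose and 1 fell, and of 14 genes of cholesterol synthesis 1 rose and 0 fell. A single T cell gene was bright enough to test and did not pass, and 0 of the 4 sex-linked genes were.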
